A study of Mus musculus with 40 samples.

Results

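Gene expression of 4T1 primary tumors treated with chitin + anti-PD-1 was compared with that of 4T1 primary tumors treated with anti-PD-1 alone. All tumors that the labels place in these groups were taken, 5 in each, which makes 10 of the 39 tumors with RNA-sequencing values, and all 14318 genes of the table were compared. The study treated mice bearing 4T1 or 66cl4 mammary tumors, both models of triple-negative breast cancer grown from mouse cell lines, with chitin, anti-PD-1, both or neither. The mice were wild-type female BALB/c mice that were lactating when inoculated, after their pups had been weaned. The paper mentions that milk production then ceased. The tumor cells, which expressed luciferase, had been injected into the milk ducts of the mammary gland. Anti-PD-1, an antibody from clone RMP1-14, was given intraperitoneally at 200 µg per mouse in both groups. The chitin + anti-PD-1 group also received 1 mg chitin per mouse, as particles by the same route, so that chitin is the only labelled difference between the groups. Tumors were taken at 5 w post-inoculation, and RNA was made from tumor tissue without sorting of cells. The study injected a pair of glands in each mouse, and the labels number the tumors without naming the animals. Tumors of a group may therefore come from the same mouse. The p-values and intervals given here measure the spread between these tumors and treat each tumor as independent.

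PD-1 is an inhibitory receptor on activated T-cells, and antibodies against it release T-cells from this brake. T-cells recognise peptides on MHC molecules of tumor cells, macrophages and dendritic cells, and B-cells can gather beside them in tumors. Chitin, a sugar polymer of fungi and arthropods, binds chitinases and the related chitinase-like proteins, which neutrophils and macrophages secrete. In whole tumors, fewer cells of a type and less RNA per cell cannot be told apart, which holds for all gene groups below.

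The 10 tumors had 5594719 to 9908975 reads on the listed genes, with means of 7288530 for chitin + anti-PD-1 and 7375740 for anti-PD-1, a difference within the spread between tumors (two-sided exact permutation test, p = 0.937). Cdh1, the epithelial adhesion molecule E-cadherin, was present in all 10 tumors at 1060.5 to 4107 normalized counts, which are recovered reads after scaling by each tumor's size factor. Tumor 2 of the anti-PD-1 group stood apart from the other 4 of its group. Its median absolute gap to their mean over all genes was 0.235, against 0.104 to 0.175 for the other 9 tumors measured in the same way. All differences are chitin + anti-PD-1 minus anti-PD-1 and are differences between group means on the log2-like scale of the deposited values. This scale flattens differences of genes with few reads, so that normalized counts are given as well, always in the order of tumors 1 to 5. An interval is the 95% confidence interval of a difference from limma, without adjustment for the number of genes, and it leaves out 0 where the unadjusted p is under 0.05.

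Genes of T-cells, B-cells, dendritic cells, MHC class II and macrophages had lower means with chitin + anti-PD-1 than with anti-PD-1 alone, while 13 of 18 neutrophil markers and 18 of 20 hypoxia and glycolysis genes had higher means. With limma, 0 of 14318 genes passed an adjusted p of 0.05 in either direction (0.00%), and the smallest adjusted p was 0.259. At an unadjusted p under 0.05, 800 genes (5.59%) were lower and 507 (3.54%) were higher, 1307 in all (9.13%), and limma-voom on the recovered reads gave 0 genes at the adjusted threshold, with 821 and 577 at the unadjusted one. Over all genes, the median difference was 0.0087 and 47.5% of genes had a lower and 52.5% a higher mean. In 98 genes (0.684%) all 5 chitin + anti-PD-1-treated tumors lay below all 5 tumors of the anti-PD-1 group, and in 58 (0.405%) they all lay above.

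The result depended on anti-PD-1-treated tumor 2. Without it, 202 genes (1.41%) passed an adjusted p of 0.05, of which 166 (1.16%) were lower and 36 (0.251%) higher. When the spread was estimated over all 39 tumors of both models in 1 fit, with tumor 2 kept, 294 genes (2.05%) passed, 227 (1.59%) lower and 67 (0.468%) higher. Both settings called 138 genes in the same direction (0.964% of all), which is 68.3% of the first list and 46.9% of the second, and 119 of these were lower and 19 higher. These are called the 2 alternative settings below. They were singled out after the results of the alternatives were seen, and they were not typical of these. Leaving out the tumor that stood apart also lowers the spread of its group for genes in which it lay far from the others. Median centring, no trend, equal read depth and a fit of only the 2 compared groups each gave 0 genes at the adjusted threshold. The 2 alternative settings share most of their samples with the analysis of all 19 4T1 tumors, so that neither is an independent repeat of it. With a weight estimated for each tumor, 2127 genes (14.9%) passed the adjusted threshold, of which 1134 (7.92%) were lower and 993 (6.94%) higher. At the unadjusted threshold this fit gave 2184 lower and 2216 higher genes, so that 49.6% of these were lower, against 61.2% without weights.

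**Figure D1:**
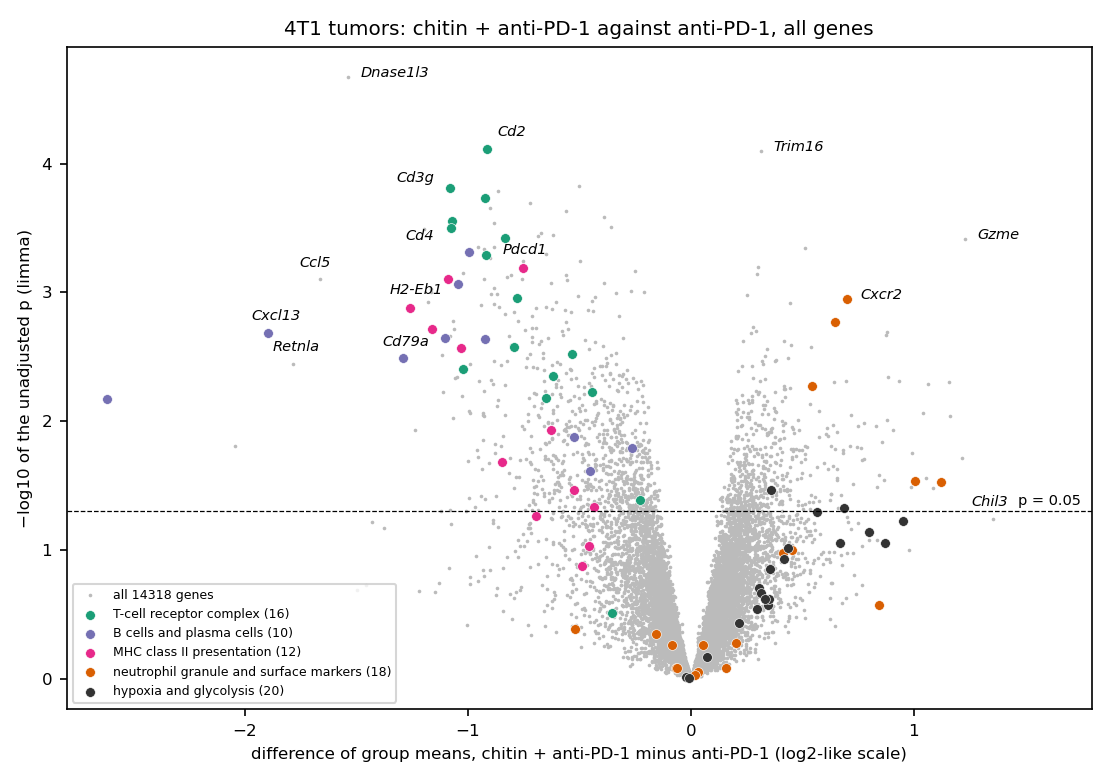
Each point is 1 of 14318 genes, with the difference of the group means on the x axis (log2-like scale) and the −log10 of the unadjusted p from limma on the y axis, and colored points are members of 5 gene lists. The T-cell, B-cell and MHC class II genes lie on the left, and of the 5 colored lists the neutrophil genes reach furthest to the right.

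Dnase1l3 had the smallest p of all genes that were lower. It encodes a secreted DNase made by dendritic cells and macrophages (chromosome 14, 7965187 to 7994760, mm10), and it was at 365, 187, 279, 270.4 and 559.9 normalized counts in anti-PD-1-treated tumors 1 to 5 and at 19.6, 41.8, 31.6, 21.6 and 195 in tumors 1 to 5 of the combination. In 4 of the 5 chitin + anti-PD-1-treated tumors it was far below every tumor of the other group, while tumor 5 overlapped with anti-PD-1-treated tumor 2. Its mean was 5.37 times as high with anti-PD-1 alone, a difference of -1.54 (SE 0.271, interval -2.11 to -0.97). The adjusted p was 0.259, and 0.0125 and 0.00114 under the 2 alternative settings.

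The T-cell receptor complex, its coreceptors and the kinases next to it were lower as a group. All 16 measured genes of this list had a lower mean, 15 of them at an unadjusted p under 0.05 (5.59% of all genes), and the median difference was -0.81. Cd3g, a signalling chain of the receptor (chromosome 9, 44969572 to 44980431), was at 229, 155, 394, 271 and 256 normalized counts in anti-PD-1-treated tumors 1 to 5 and at 49.9, 38.9, 77.1, 60.9 and 141 in tumors 1 to 5 of the combination. All 5 tumors of the combination lay below all 5 of anti-PD-1 alone, whose mean was 3.55 times as high, a difference of -1.08 (SE 0.227, interval -1.56 to -0.60). Cd2, an adhesion receptor of T-cells and NK cells, was at 111, 42.8, 145, 102 and 136 normalized counts with anti-PD-1 alone and 9.0, 28.8, 15.2, 11.3 and 45.5 with the combination. Only tumor 5 of the combination reached into the range of the other group, through anti-PD-1-treated tumor 2, and the difference was -0.91 (interval -1.29 to -0.54). The coreceptor of helper T-cells, Cd4, had 182, 49.5, 189, 124 and 198 normalized counts with anti-PD-1 alone and 4.91, 27.4, 15.2, 21.6 and 82.8 with the combination, with a mean that was 4.89 times as high with anti-PD-1 alone (-1.07, interval -1.57 to -0.57).

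Cd8a and Cd8b1, which encode the coreceptor of cytotoxic T-cells and were chosen after their values were seen, showed the same direction. Cd8a was at 319.9, 262, 633, 336 and 354 normalized counts with anti-PD-1 alone and 62.2, 49.0, 167, 134 and 329 with the combination. Chitin + anti-PD-1-treated tumor 5 lay within the range of the anti-PD-1 group and the other 4 lay below it, with a difference of -1.02 (SE 0.309, interval -1.67 to -0.37). For Cd8b1, whose difference was -0.80 (interval -1.27 to -0.32), the groups did not overlap. Lck, the kinase that starts signalling at the receptor, had a mean of 302 ± 97.2 normalized counts with anti-PD-1 alone and 91.9 ± 55.2 with the combination (SD, n = 5 each) and differed by -1.08 (interval -1.59 to -0.57). Cd6, a surface receptor of T-cells, differed by -0.92 (interval -1.34 to -0.51), Cd3e by -0.92 (interval -1.38 to -0.46) and Cd5 by -0.83 (interval -1.23 to -0.43), the latter 2 named after their values were seen. Of the 16 genes, 8 passed the adjusted threshold without anti-PD-1-treated tumor 2 and 14 with both models in 1 fit, all of them lower. Of all genes, 1.16% and 1.59% were lower at these thresholds. Other genes of lymphocytes were among the 12 lower genes with the smallest p: Grap2, an adaptor of T-cell signalling, at -0.88 (interval -1.30 to -0.47), the lymphocyte transcription factor Ikzf3 at -0.96 (interval -1.42 to -0.49), and Cd52, a surface glycoprotein of lymphocytes and monocytes, at -0.88 (interval -1.32 to -0.45).

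**Figure D2:**
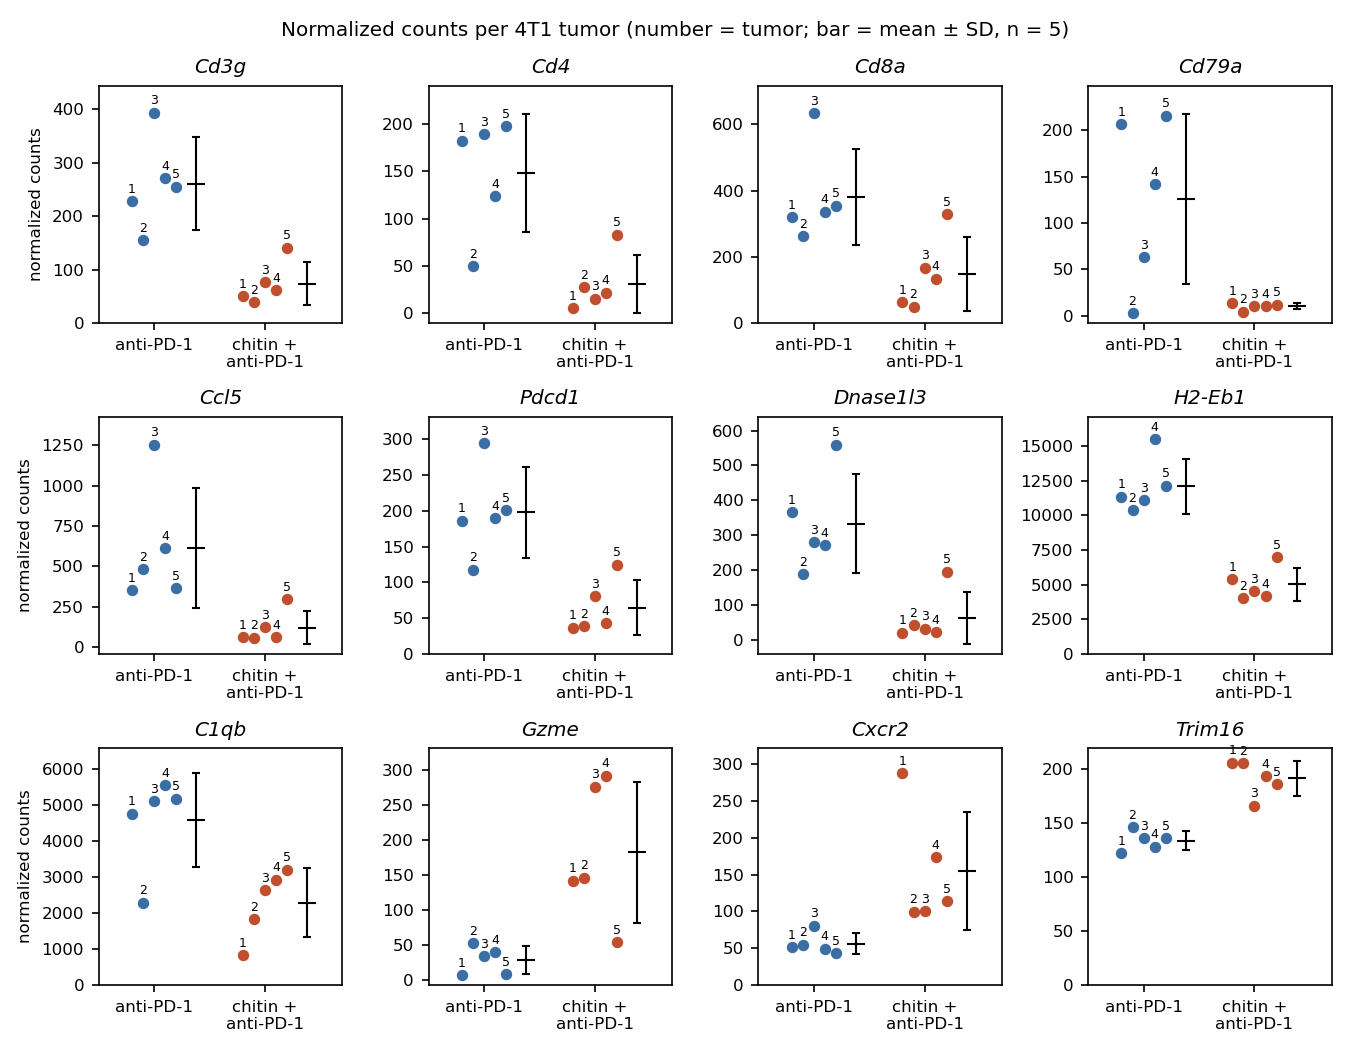
Normalized counts of 12 genes in the 5 anti-PD-1-treated (blue) and 5 chitin + anti-PD-1-treated (red) 4T1 tumors, with the tumor number above each point and the mean ± SD beside each group. Combination tumor 5 is the highest of its group for 8 of the genes, and Gzme, Cxcr2 and Trim16 have the opposite order without overlap.

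The stretches of 250 bases before the start of Lck, Pdcd1 and Cd79a are shown because these genes of T-cells, of the PD-1 receptor and of B-cells were lower together, and that of H2-Eb1 because of its place in the MHC class II group below. They are RefSeq sequences of GRCm38.p6, printed 5′ to 3′ on the strand of the gene, and lie at chr4:129573642-129573891 (minus strand), chr1:94052554-94052803 (minus strand), chr7:24897247-24897496 (plus strand) and chr17:34305617-34305866 (plus strand). Capitals mark AGGAAG, a core bound by ETS factors, or its reverse complement in the first 3, and CTGATTGG, the Y box of MHC class II promoters, in the last.
Lck: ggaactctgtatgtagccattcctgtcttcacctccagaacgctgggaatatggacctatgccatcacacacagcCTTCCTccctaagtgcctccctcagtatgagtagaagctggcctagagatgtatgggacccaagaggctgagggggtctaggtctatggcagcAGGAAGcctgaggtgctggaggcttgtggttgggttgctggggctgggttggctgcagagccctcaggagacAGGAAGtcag
Pdcd1: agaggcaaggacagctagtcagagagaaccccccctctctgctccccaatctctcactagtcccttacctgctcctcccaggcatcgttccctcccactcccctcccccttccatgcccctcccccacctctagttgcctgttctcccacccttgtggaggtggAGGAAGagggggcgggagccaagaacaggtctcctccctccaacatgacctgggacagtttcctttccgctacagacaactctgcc
Cd79a: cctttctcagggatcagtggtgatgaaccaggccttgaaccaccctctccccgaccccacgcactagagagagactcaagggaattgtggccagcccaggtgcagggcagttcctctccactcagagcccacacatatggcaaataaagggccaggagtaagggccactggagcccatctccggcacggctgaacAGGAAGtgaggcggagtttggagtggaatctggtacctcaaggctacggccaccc
H2-Eb1: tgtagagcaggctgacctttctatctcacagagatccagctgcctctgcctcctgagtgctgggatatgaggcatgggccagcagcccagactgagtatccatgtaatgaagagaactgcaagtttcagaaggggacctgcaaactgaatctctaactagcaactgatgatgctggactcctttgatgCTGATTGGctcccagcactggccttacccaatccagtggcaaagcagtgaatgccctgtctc
The Lck stretch holds 3 matches, 175, 82 and 10 bases before the start, in the first of its RefSeq entries, and Pdcd1 and Cd79a hold 1 each, at 86 and 55 bases. AGGAAG on either strand was in 29.5% of all 32851 RefSeq promoter stretches of this length. These hold more than 1 entry for some genes, while the shares of the lists count only the first entry of each gene. Among the 9 T-cell receptor complex genes with an entry it was in 7 (77.8%), among 6 B-cell genes in 3 (50.0%) and among 15 checkpoint genes in 6 (40.0%). CTGATTGG was in 3.83% of all stretches and in 3 of 8 MHC class II genes (37.5%). The octamer ATGCAAAT (1.60% of all) was found in none of these genes, and the RUNX core TGTGGT (14.0% of all) in 1 of 9 T-cell genes, 0 of 6 B-cell genes, 4 of 15 checkpoint genes and 1 of 8 MHC class II genes. Both strands were searched for each motif, and motifs were counted whether or not they overlapped. The matches are letters in a window and were not tested as sites.

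Checkpoint receptors and their ligands were lower in 18 of 20 genes, 9 at an unadjusted p under 0.05 (5.59% of all genes) and 1, Nectin2, higher at that level (3.54% of all genes), with a median difference of -0.30. Pdcd1, which encodes PD-1 itself (chromosome 1, 94038305 to 94052553), was at 186, 118, 294, 190.2 and 201 normalized counts in anti-PD-1-treated tumors 1 to 5 and at 36.8, 38.9, 80.9, 43.1 and 125 in tumors 1 to 5 of the combination. The groups overlapped only through chitin + anti-PD-1-treated tumor 5 and anti-PD-1-treated tumor 2, and the mean was 3.05 times as high with anti-PD-1 alone, a difference of -0.90 (SE 0.215, interval -1.35 to -0.45). Lag3, an inhibitory receptor that binds MHC class II, had 182, 128, 230.3, 177 and 162 normalized counts with anti-PD-1 alone and 39.3, 43.2, 82.2, 61.9 and 119 with the combination. Here all 5 combination tumors were below all 5 others, and the difference was -0.75 (interval -1.13 to -0.37). Tox, a transcription factor of exhausted T-cells, at -0.71 (interval -1.11 to -0.31), and Cd86, a ligand of CTLA-4 and CD28 on antigen-presenting cells, at -0.57 (interval -0.88 to -0.25), did not overlap either.

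The other genes that the study names for exhaustion had smaller differences. Havcr2, the gene of TIM-3, had 135, 199, 202, 249 and 148 normalized counts with anti-PD-1 alone and 86.7, 112, 129, 104 and 174 with the combination, and differed by -0.37 (interval -0.66 to -0.090). Tumor 5 of the combination was again its highest. Cd274, which encodes PD-L1, had 392, 1404, 805, 351 and 407 normalized counts with anti-PD-1 alone and 914, 378, 449, 273 and 761 with the combination. Its groups overlapped, with a difference of -0.17 (SE 0.358, interval -0.92 to 0.59), and the sign turned to 0.11 without anti-PD-1-treated tumor 2. Adjusted p-values of the 4 genes were 0.259, 0.259, 0.422 and 0.910 for Pdcd1, Lag3, Havcr2 and Cd274. Under the 2 alternative settings, Pdcd1 (0.0331 and 0.00608) and Lag3 (0.0419 and 0.00851) passed, and Havcr2 (0.184 and 0.108) did not.

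Regulatory T-cell and costimulation genes were lower in 10 of 12, 7 at an unadjusted p under 0.05 (5.59% of all genes), with a median of -0.35. The costimulatory receptor Cd27 was at 68.0 ± 25.4 normalized counts with anti-PD-1 alone and 18.1 ± 8.09 with the combination (SD, n = 5 each) and differed by -0.65 (interval -1.01 to -0.29), and Tnfrsf18, which encodes GITR, differed by -0.62 (interval -0.97 to -0.28). Foxp3, the transcription factor of regulatory T-cells, was at 146, 92.3, 133, 127 and 172 normalized counts with anti-PD-1 alone and 81.0, 95.1, 68.3, 63.8 and 100.3 with the combination. The ranges overlapped and the mean was 1.64 times as high with anti-PD-1 alone (-0.38, interval -0.64 to -0.11).

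Most cytotoxic and NK-cell genes were lower. Of 18 genes on the list, 16 were lower, 11 at an unadjusted p under 0.05 (5.59% of all genes). At that level 1, Gzmc, was higher (3.54% of all genes), and the list median was -0.37. Ccl5, a chemokine of activated T-cells and NK cells, was at 353, 483, 1255, 611 and 363 normalized counts with anti-PD-1 alone and 62.2, 57.7, 121, 60.9 and 296 with the combination. The groups did not overlap and the mean was 5.12 times as high with anti-PD-1 alone, a difference of -1.66 (SE 0.413, interval -2.53 to -0.79). Nkg7, a protein of cytotoxic granules (-0.93, interval -1.41 to -0.44), and the NK receptor chain Klrd1 (-0.56, interval -0.88 to -0.24) did not overlap between groups, while Klrk1, which encodes NKG2D (-0.78, interval -1.22 to -0.33), overlapped through combination tumor 5. Of the killing proteins, Gzmk and the death ligand gene Fasl were among these 11 lower genes, and Gzma was lower without reaching that level. Gzmb and Prf1, chosen after their values were seen, showed no such order. Gzmb, granzyme B, was at 39.8, 337, 154, 58.0 and 57.0 normalized counts with anti-PD-1 alone and 353, 40.4, 77.1, 35.6 and 245 with the combination, and Prf1, perforin, at 112, 226, 105, 58.0 and 127 normalized counts with anti-PD-1 alone and 173, 23.1, 105, 45.0 and 122 with the combination. The groups overlapped for both, and the differences were 0.084 (interval -0.81 to 0.98) and -0.27 (interval -0.93 to 0.39).

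Gzme, a granzyme of strongly activated killer cells (chromosome 14, 56117619 to 56120625), had a higher mean in the combination. It was at 6.42, 52.2, 33.3, 39.2 and 7.49 normalized counts in anti-PD-1-treated tumors 1 to 5 and at 141, 146, 276, 292 and 53.6 in tumors 1 to 5 of the combination. All 5 combination tumors were above all 5 others, and their mean was 6.55 times as high, a difference of 1.23 (SE 0.284, interval 0.64 to 1.83). Its neighbours in the granzyme cluster were chosen after their values were seen. Gzmd differed by 1.16 (interval 0.40 to 1.92), Gzmc by 0.91 (interval 0.23 to 1.59), Gzmf by 0.70 (interval -0.16 to 1.56) and Gzmg by 0.77 (interval -0.14 to 1.67). Chitin + anti-PD-1-treated tumor 1 held the most normalized counts of Gzmc, Gzmf and Gzmg, at 311, 201 and 210.2, and anti-PD-1-treated tumor 2 held more than the others of its group. These genes are close copies of each other, so that reads may have been divided among them by the counting and their single values are uncertain. The mean of Gzme was 108 ± 73.1 (SD, n = 4) normalized counts in untreated and 114 ± 58.7 (n = 5) in chitin-treated 4T1 tumors, against 27.7 ± 20.2 normalized counts with anti-PD-1 alone and 182 ± 100.3 with the combination (SD, n = 5 each).

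B-cell and plasma cell genes had the lowest median of the 39 lists, at -1.02. All 10 measured genes were lower, each at an unadjusted p under 0.05 (5.59% of all genes). Cd79a, a signalling chain of the B-cell receptor (chromosome 7, 24897497 to 24901858), was at 207, 2.68, 62.7, 142 and 216 normalized counts in anti-PD-1-treated tumors 1 to 5 and at 13.1, 4.32, 10.1, 10.3 and 11.7 in tumors 1 to 5 of the combination. Anti-PD-1-treated tumor 2 was below every combination tumor, and the other 4 of its group were all far above them. The mean was 12.7 times as high with anti-PD-1 alone, a difference of -1.10 (SE 0.310, interval -1.75 to -0.45). Cd79b, its partner, had 163, 2.68, 65.3, 81.0 and 161 normalized counts with anti-PD-1 alone and 0, 4.32, 5.06, 13.1 and 16.3 with the combination, again with only tumor 2 of the anti-PD-1 group in the range of the combination (-1.05, interval -1.60 to -0.49). The B-cell receptor inhibitor Cd22 differed by -0.99 (interval -1.49 to -0.50).

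Cxcl13, the chemokine that draws B-cells into follicles, was at 756, 83.0, 1086, 485 and 856 normalized counts with anti-PD-1 alone and 59.7, 82.2, 12.6, 95.6 and 143 with the combination. Its mean was 8.30 times as high with anti-PD-1 alone, a difference of -1.90 (SE 0.527, interval -3.00 to -0.79). Jchain, which joins secreted IgM and IgA and was chosen after its values were seen, had the lowest difference of all genes, -2.62, at 1128, 109.7, 1248, 4894 and 1280.1 normalized counts with anti-PD-1 alone and 5.73, 134, 34.1, 146 and 281 with the combination. Ms4a1, the B-cell antigen CD20, had 0 reads in anti-PD-1-treated tumor 2 and in tumor 3 of the combination. Of the 10 genes, 7 passed the adjusted threshold without anti-PD-1-treated tumor 2 (1.16% of all genes lower) and 7 with both models in 1 fit (1.59%). The list median was -1.29 without this tumor. Without tumor 2, the smallest adjusted p of all genes (9.02e-06) belonged to Pla2g2d, a secreted phospholipase of lymphoid tissue, which had 169.6, 1.34, 133, 120.3 and 208 normalized counts with anti-PD-1 alone and 4.91, 10.1, 5.06, 7.5 and 9.33 with the combination and was named after its values were seen. Its only low value with anti-PD-1 alone was that of tumor 2, the tumor left out.

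**Figure D3:**
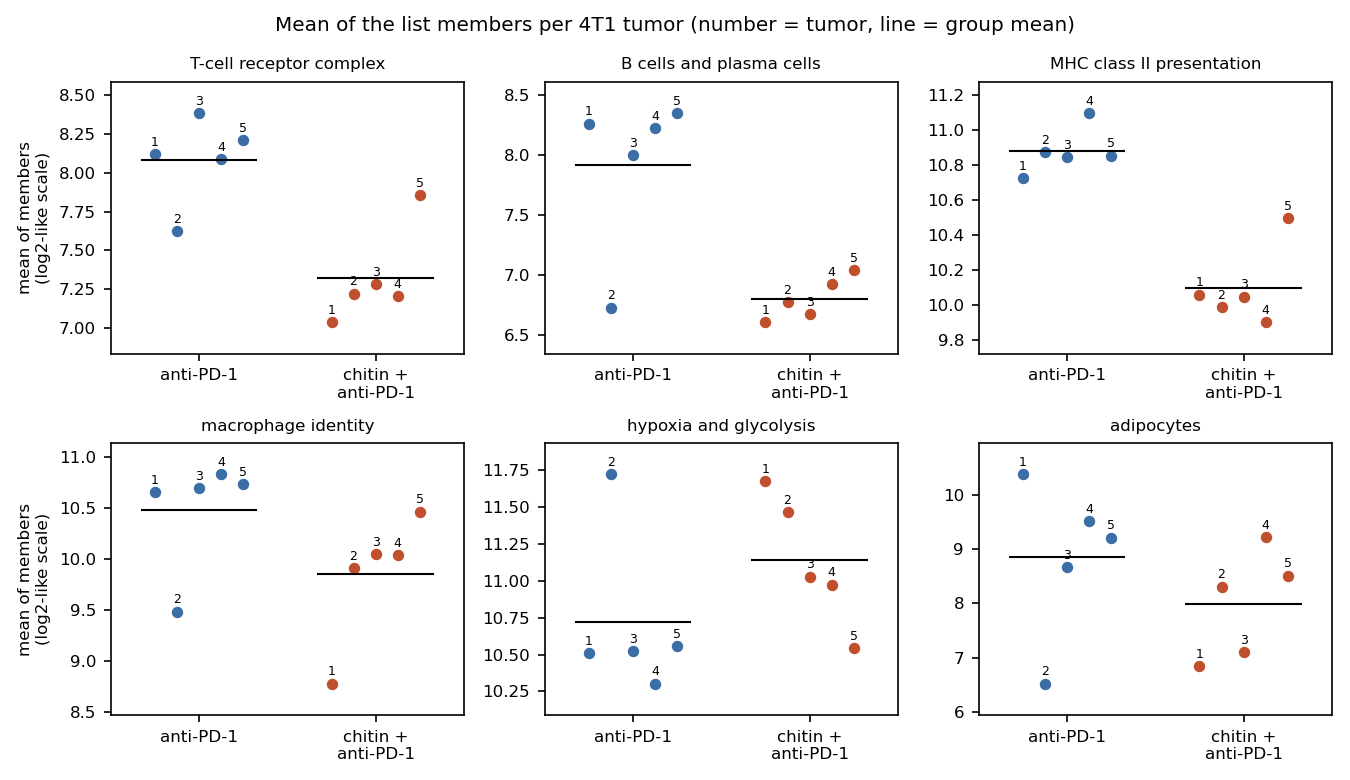
Mean of the members of 6 gene lists in each 4T1 tumor, on the log2-like scale, with the tumor number above each point and a line at the group mean. Anti-PD-1-treated tumor 2 lies among or below the combination tumors for B-cells, macrophages and adipocytes, and is the highest of the 10 tumors for hypoxia, but lies within its own group for MHC class II. For the T-cell receptor complex it lies below combination tumor 5.

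Dendritic cell genes were lower in 15 of 16, 11 at an unadjusted p under 0.05 (5.59% of all genes), with a median of -0.59. Xcr1, the chemokine receptor of cross-presenting dendritic cells, was at 173, 17.4, 93.4, 190.2 and 244 normalized counts with anti-PD-1 alone and 6.54, 7.21, 20.2, 27.2 and 51.3 with the combination. Only anti-PD-1-treated tumor 2 fell within the range of the combination, and the mean was 6.38 times as high with anti-PD-1 alone (-1.06, interval -1.68 to -0.45). Itgae, which encodes CD103 of dendritic cells and resident T-cells (-1.11, interval -1.80 to -0.43), Batf3, the transcription factor of cross-presenting dendritic cells (-0.54, interval -0.87 to -0.21), and Ccr7, the receptor that guides mature dendritic cells to lymph nodes (-0.81, interval -1.29 to -0.32), had the same order. Under the 2 alternative settings, 8 and 9 of the 16 passed (1.16% and 1.59% of all genes lower).

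For MHC class II genes, anti-PD-1-treated tumor 2 lay with the others of its group. All 12 measured genes were lower, 9 at an unadjusted p under 0.05 (5.59% of all genes), with a median of -0.72. In 6 of the 12 all 5 combination tumors lay below all 5 others (0.684% of all genes). H2-Eb1, a class II beta chain (chromosome 17, 34305867 to 34316674), was at 11352, 10377, 11108, 15497 and 12142 normalized counts in anti-PD-1-treated tumors 1 to 5 and at 5419, 4051, 4538, 4196 and 6973 in tumors 1 to 5 of the combination. The lowest tumor of the anti-PD-1 group was above the highest of the combination, and the mean was 2.40 times as high, a difference of -1.26 (SE 0.332, interval -1.95 to -0.56). H2-Ab1, another beta chain (-1.16, interval -1.84 to -0.49), and Cd74, the invariant chain that escorts class II molecules (-1.09, interval -1.65 to -0.52), were also without overlap. H2-Ob, which regulates peptide loading mainly in B-cells, differed by -0.75 (interval -1.14 to -0.37) and overlapped through tumor 2. Under each of the 2 alternative settings 1 of the 12, H2-Ob, passed the adjusted threshold. The class I genes were lower in 16 of 16 too, but 0 had an unadjusted p under 0.05, and their median was -0.23.

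Macrophage genes were lower in 18 of 20, 9 at an unadjusted p under 0.05 (5.59% of all genes). Their median was -0.69, or -0.36 without combination tumor 1 and -0.91 without anti-PD-1-treated tumor 2. Aif1, which encodes the macrophage protein IBA1, was at 619, 251.6, 490.1, 683 and 666 normalized counts with anti-PD-1 alone and 86.7, 172, 189.6, 252.2 and 361 with the combination. Combination tumors 4 and 5 reached the range of anti-PD-1-treated tumor 2, and the other 4 anti-PD-1-treated tumors lay above all of them (-1.02, interval -1.55 to -0.49). The complement genes C1qa, C1qb and C1qc, which macrophages make, had differences of -0.99 (interval -1.69 to -0.28), -1.03 (interval -1.72 to -0.33) and -0.93 (interval -1.59 to -0.27). C1qb was at 4771, 2289, 5117, 5557 and 5188 normalized counts with anti-PD-1 alone and 837, 1826, 2647, 2933 and 3213 with the combination. Csf1r, the receptor for the macrophage growth factor CSF-1, was at 4041, 1866, 4609, 4891 and 4791 normalized counts with anti-PD-1 alone and 635, 2652, 2873, 2635 and 3976 with the combination. Combination tumor 1 and anti-PD-1-treated tumor 2 were the lowest of their groups, and the difference was -0.75 (SE 0.397, interval -1.58 to 0.083), or -0.34 without combination tumor 1. Itgam, which encodes CD11b of myeloid cells, was at 1348, 1162, 1455, 973 and 1527 normalized counts with anti-PD-1 alone and 994, 1207, 2182, 685 and 1434 with the combination, with overlapping ranges (-0.065, interval -0.64 to 0.51). With both models in 1 fit, 4 of the 20 passed the adjusted threshold, Aif1 and the 3 C1q genes (1.59% of all genes lower). Without anti-PD-1-treated tumor 2 only Aif1 did (1.16%). Complement genes were lower in 19 of 19 (median -0.41, or -0.64 without combination tumor 5). At an unadjusted p under 0.05 were 5 (5.59% of all genes), the 3 C1q genes, C4b and Cfb.

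Genes used to describe states of tumor macrophages were divided. Of 19, 10 were lower and 9 higher, with 6 lower and 0 higher at an unadjusted p under 0.05 (5.59% and 3.54% of all genes). The median was -0.054, or -0.22 without anti-PD-1-treated tumor 2. Retnla, a secreted protein of macrophages in type 2 responses, was at 920, 4.01, 160, 601 and 1041 normalized counts with anti-PD-1 alone and 4.09, 38.9, 30.3, 54.4 and 68.8 with the combination. Its mean differed by -1.78 (interval -2.90 to -0.66), and anti-PD-1-treated tumor 2 had the lowest value of all 10 tumors. Arg1, which encodes arginase 1, had 1309, 3271, 1588, 2264 and 1478 normalized counts with anti-PD-1 alone and 3783, 2359.8, 6034, 3161 and 1742 with the combination, with a difference of 0.70 (interval -0.033 to 1.44).

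CC chemokines, their receptors and 3 CXC genes (Cxcr3, Cxcr6 and Cxcl16) on the same list were lower in 16 of 17, with a median of -0.59. Of these, 10 were at an unadjusted p under 0.05 (5.59% of all genes). Ccl22, a chemokine of dendritic cells that attracts regulatory T-cells, was at 221, 33.5, 197, 235 and 226 normalized counts with anti-PD-1 alone and 9.0, 79.3, 19.0, 15.9 and 88.6 with the combination. Anti-PD-1-treated tumor 2 lay in the middle of the combination range and the other 4 lay above it (-1.07, interval -1.68 to -0.46). Cxcr6, a receptor of resident T-cells, differed by -0.90 (interval -1.38 to -0.41). Ccl2, the monocyte chemokine, was at 161, 112, 292, 134 and 176 normalized counts with anti-PD-1 alone and 152, 185, 92.3, 46.9 and 167 with the combination, and its groups overlapped (-0.29, interval -0.72 to 0.14).

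The interferon lists had medians below 0, and few of their genes passed the unadjusted threshold. The interferon gamma list was lower in 20 of 22 genes, 1 at an unadjusted p under 0.05 (5.59% of all genes), with a median of -0.24, which was -0.032 without anti-PD-1-treated tumor 2. The 1 gene was Irf8, a transcription factor of dendritic cells and macrophages (-0.66, interval -1.08 to -0.24). Type I interferon genes were lower in 20 of 20, 0 at an unadjusted p under 0.05, with a median of -0.19.

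Neutrophil genes were on the higher side of the comparison. Of 18 measured markers, 13 were higher, 5 (Cxcr2, Trem1, Mmp8, S100a8 and S100a9) at an unadjusted p under 0.05 (3.54% of all genes), and 0 were lower at that level, with a median of 0.18. Left out in turn, single tumors moved this median from 0.091 (combination tumor 1) to 0.43 (combination tumor 2), and it was 0.28 without anti-PD-1-treated tumor 5. Cxcr2, the receptor that draws neutrophils to CXC chemokines (chromosome 1, 74153994 to 74161246), was at 51.4, 54.9, 80.6, 49.5 and 43.5 normalized counts in anti-PD-1-treated tumors 1 to 5 and at 288, 99.5, 99.9, 173 and 114 in tumors 1 to 5 of the combination. All 5 combination tumors were above all 5 others, tumor 1 the highest, and the mean was 2.77 times as high, a difference of 0.70 (SE 0.182, interval 0.32 to 1.08). Trem1, an activating receptor of neutrophils and monocytes, had 27.0, 112, 53.7, 46.9 and 21.7 normalized counts with anti-PD-1 alone and 189.7, 108, 131, 109 and 86.3 with the combination, where anti-PD-1-treated tumor 2 overlapped (0.65, interval 0.28 to 1.01). The granule collagenase Mmp8 did not overlap (0.54, interval 0.18 to 0.90). S100a8, a calcium-binding protein that neutrophils hold in bulk, was at 251, 262, 267, 192 and 271 normalized counts with anti-PD-1 alone and 2719, 159, 374, 685 and 568 with the combination. Combination tumor 2 was below the whole anti-PD-1 group while tumor 1 was far above it, and the difference was 1.01 (SE 0.424, interval 0.12 to 1.90), or 0.52 without tumor 1. Summed over the 18 markers, normalized counts ran from 6779.7 to 14792 with anti-PD-1 and from 9823 to 29257 with the combination. The highest sum was that of combination tumor 1, and the other 4 of its group, at 9823 to 12337, lay inside the range of the anti-PD-1 group.

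Chemokines and growth factors of neutrophils were higher in 8 of 13 genes, 4 (Cxcl2, Cxcl3, Csf2 and Cxcr2) at an unadjusted p under 0.05 (3.54% of all genes). At that level 1, Csf2ra, was lower (5.59% of all genes). The median was 0.31, or 0.13 without combination tumor 1. Cxcl2, a ligand of CXCR2, was at 3.85, 127, 7.68, 10.2 and 10.5 normalized counts with anti-PD-1 alone and 1126, 75.0, 86.0, 27.2 and 108 with the combination. Anti-PD-1-treated tumor 2 overlapped with the combination, in which tumor 1 had most of the reads (1.22, SE 0.473, interval 0.22 to 2.21), and the difference was 0.65 without that tumor. Csf2, which encodes GM-CSF, was at 7.71, 9.37, 7.68, 26.4 and 12.7 normalized counts with anti-PD-1 alone and 43.3, 23.1, 22.8, 34.7 and 18.7 with the combination, so at few reads in all tumors (0.31, interval 0.11 to 0.51). Among inflammatory cytokines, 12 of 19 genes were higher, with a median of 0.069. At an unadjusted p under 0.05, 3 (Ptgs2, Il1a and Il1r2) were higher (3.54% of all genes) and 1, Tnf, was lower (5.59% of all genes). Ptgs2, the inducible cyclooxygenase COX-2 (1.06, interval 0.13 to 1.98), and Il1a, which encodes interleukin-1 alpha (0.87, interval 0.10 to 1.64), were highest in chitin + anti-PD-1-treated tumor 1 and anti-PD-1-treated tumor 2 of their groups. Mcpt8, a protease of basophils, was the 1 gene of 8 on the mast cell and basophil list with an unadjusted p under 0.05 that was higher (0.50, interval 0.10 to 0.89). Tpsab1, a tryptase of mast cells, was the 1 that was lower at that level, and the median of that list was -0.39. Of all genes, 3.54% were higher and 5.59% lower at that level.

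The chitinase-like genes, to whose proteins chitin binds, had a median near 0. Of 13 measured genes of chitinases, chitinase-like proteins and receptors tied to them, 7 were lower and 6 higher, with 2 (Tmem219 and Tlr2) and 0 at an unadjusted p under 0.05 (5.59% and 3.54% of all genes) and a median of -0.0050. Chil3, which encodes CHI3L3, was at 34.7, 5.35, 57.6, 91.3 and 46.5 normalized counts with anti-PD-1 alone and 9.81, 36.0, 1700.1, 1665 and 44.3 with the combination. Combination tumors 3 and 4 were far above the other 8 tumors, so that the difference of 1.35 had an SE of 0.667 (interval -0.046 to 2.76). Chil1, which encodes CHI3L1 and was chosen after its values were seen, was at 207, 20.1, 98.5, 144 and 126 normalized counts with anti-PD-1 alone and 103, 226, 17.7, 59.1 and 117 with the combination. The ranges were alike, with a difference of -0.13 (SE 0.303, interval -0.76 to 0.51). Usf1, a transcription factor, differed by -0.20 (interval -0.43 to 0.038) and Rab37, a small GTPase of secretion, by -0.18 (interval -0.35 to -0.0017). Of 14 STAT3 pathway genes, 3 (Il6ra, Lifr and Il21r) were lower and 1, Myc, was higher at an unadjusted p under 0.05 (5.59% and 3.54% of all genes, list median -0.087). For 16 genes of toll-like receptors, their adaptors and C-type lectins these counts were 3 (Tlr1, Tlr2 and Tlr9) and 1, the lectin gene Clec4e (median -0.13), and for 14 type 2 immunity genes 1, Retnla, and 0 (median -0.13).

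Among the remaining lower genes with the smallest p were several of myeloid cells. Trpm2, a calcium channel of phagocytes, was at 305, 141, 212, 237 and 331 normalized counts with anti-PD-1 alone and 77.7, 67.8, 92.3, 69.4 and 135 with the combination, without overlap between groups (-0.86, interval -1.25 to -0.48). Tlr12, a toll-like receptor of mouse dendritic cells and macrophages, differed by -0.90 (interval -1.31 to -0.49). Efhd2, a calcium-binding protein of lymphocytes and macrophages, differed by -0.56 (interval -0.81 to -0.30) and the fatty acid hydroxylase gene Cyp4v3 by -0.39 (interval -0.57 to -0.21), both without overlap, and Rps6kb2, a ribosomal S6 kinase, by -0.62 (interval -0.91 to -0.32). Stk32c, a kinase gene chosen after its values were seen, differed by -0.50 (interval -0.72 to -0.28).

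Beside Gzme, Cxcr2 and Trem1, the 12 higher genes with the smallest p held 9 more. Trim16, a ubiquitin ligase linked to stress responses (chromosome 11, 62820198 to 62842948), was at 122, 146, 136, 128 and 136 normalized counts in anti-PD-1-treated tumors 1 to 5 and at 205, 205, 166, 193 and 185 in tumors 1 to 5 of the combination. The groups did not overlap and each was tight, so that a difference of 0.32 (SE 0.0623, interval 0.18 to 0.45) came with a mean 1.43 times as high. Myc, the transcription factor of growth, had 777, 1152, 747, 658 and 692 normalized counts with anti-PD-1 alone and 1382, 1514, 1102, 952 and 1146 with the combination, where anti-PD-1-treated tumor 2 reached the combination (0.54, interval 0.21 to 0.86). Thbs1, the matrix protein thrombospondin 1, was at 1940.1 ± 778 normalized counts with anti-PD-1 alone and 3520.4 ± 698 with the combination (SD, n = 5 each) and differed by 0.88 (interval 0.36 to 1.39), and Nes, the intermediate filament nestin, by 0.88 (interval 0.37 to 1.39). The metalloproteinase gene Adamts6 differed by 0.45 (interval 0.20 to 0.69), Dgcr8, a part of the microRNA processor, by 0.27 (interval 0.11 to 0.43), Ankrd50 by 0.45 (interval 0.18 to 0.72), Carhsp1 by 0.34 (interval 0.13 to 0.55) and Ccdc9b by 0.28 (interval 0.12 to 0.44).

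Genes of hypoxia and glycolysis had the highest median of the lists, at 0.35, with 18 of 20 genes higher and 2, Pgk1 and Ankrd37, at an unadjusted p under 0.05 (3.54% of all genes). Under the 2 alternative settings, 0 of the 20 passed the adjusted threshold. Pgk1, a glycolytic enzyme, was at 2746, 9031, 3505, 2456 and 2814 normalized counts with anti-PD-1 alone and 9494, 8207, 4951, 5074 and 3572 with the combination. Anti-PD-1-treated tumor 2 was above 4 of 5 combination tumors and the other 4 of its group were below all of them (0.69, interval 0.0087 to 1.36). Ndrg1, which is induced by low oxygen, was at 1631, 8767, 1392, 1544 and 1457 normalized counts with anti-PD-1 alone and 7901, 7502, 3519, 4532 and 1504 with the combination (0.95, interval -0.043 to 1.94). Here anti-PD-1-treated tumor 2 was above all combination tumors, and combination tumor 5 lay among the other anti-PD-1-treated tumors. Without anti-PD-1-treated tumor 2 the list median was 0.57. The lists of ribosomal proteins (20 of 20 higher, median 0.15), immediate-early genes (12 of 14, 0.13), the circadian clock (8 of 12, 0.087), matrix metalloproteinases (11 of 16, 0.15), endothelium (14 of 17, 0.11), epithelium and EMT (13 of 20, 0.072), cholesterol synthesis (12 of 16, 0.068), collagens with other matrix or stromal genes (14 of 23, 0.059) and the cell cycle (13 of 25, 0.00071) held 4 genes in all (Fosb, Ier3, Nr1d2 and Mmp8) at an unadjusted p under 0.05 in either direction. Of all genes, 9.13% were at that level. Without anti-PD-1-treated tumor 2, the medians were -0.15 for collagens and matrix, -0.070 for endothelium, 0.28 for metalloproteinases and 0.18 for cholesterol synthesis. The clock gene Nr1d2 was the 1 on its list (0.41, interval 0.11 to 0.72). Respiratory chain genes were lower in 14 of 19 (median -0.055) and p53 targets in 10 of 12 (-0.14), each with 1 at that level, Ndufa4 and Cdkn2a (5.59% of all genes).

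**Figure D4:**
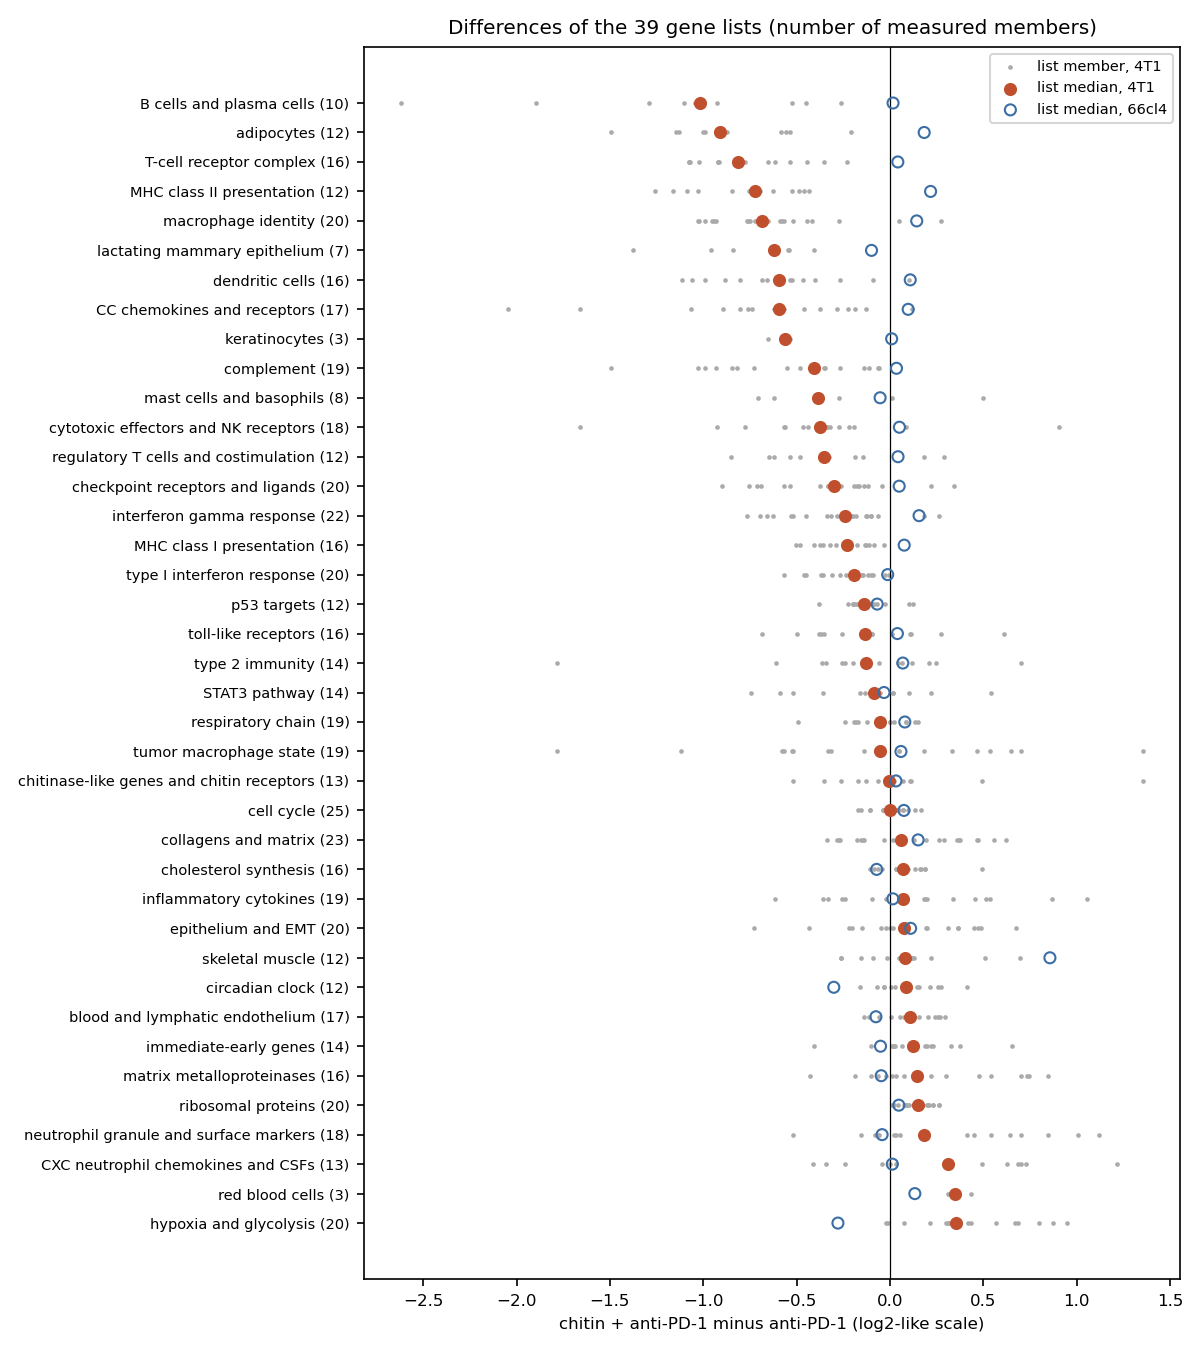
Difference between chitin + anti-PD-1 and anti-PD-1 alone for the members of the 39 gene lists in 4T1 tumors (grey points), the list median in 4T1 (red) and the list median of the same contrast in 66cl4 tumors (open blue), on the log2-like scale. The B-cell, T-cell and MHC class II medians lie between -1.02 and -0.72 in 4T1 and between 0.016 and 0.22 in 66cl4.

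Markers of the gland around the tumor had lower means as well. All 12 adipocyte genes were lower (median -0.91), with 1, Lep, at an unadjusted p under 0.05 (5.59% of all genes), and all 7 genes of lactating mammary epithelium were lower (median -0.62), 0 at that level. The adipocyte median was -1.49 without anti-PD-1-treated tumor 2, -0.47 without tumor 1 of that group and -0.60 without combination tumor 1, and the lactating epithelium median was -1.07 without anti-PD-1-treated tumor 2. Summed normalized counts of the adipocyte genes ran from 237 to 25419 in the anti-PD-1 group and from 393 to 9647 in the combination, and those of the lactating epithelium from 2745 to 5400.4 and from 1231 to 3249.9. Adipoq, Lep, Csn2 and Elf5 had 0 reads in anti-PD-1-treated tumor 2, which also had the lowest summed normalized counts of the 10 B-cell genes in its group, 270.3. In order of tumors 1 to 5, the adipocyte list mean on the log2-like scale was 10.38, 6.52, 8.67, 9.52 and 9.21 with anti-PD-1 and 6.85, 8.31, 7.10, 9.22 and 8.51 with the combination, and that of the B-cell list 8.27, 6.73, 8.005, 8.23 and 8.35 and 6.61, 6.78, 6.68, 6.92 and 7.04. In the adipocyte list, combination tumors 1, 2, 3 and 5 lay below anti-PD-1-treated tumors 1, 3, 4 and 5, and combination tumor 4 lay within their range. In the B-cell list, all combination tumors lay below these anti-PD-1-treated tumors. Anti-PD-1-treated tumor 2 had the lowest adipocyte mean of all and a B-cell mean within the range of the combination. Skeletal muscle genes were higher in 7 of 12 (median 0.081), red blood cell genes in 3 of 3 (0.35) while keratinocyte genes were lower in 3 of 3 (-0.56). Without anti-PD-1-treated tumor 2 the skeletal muscle median was -0.11 and that of red blood cells 0.12, and the keratinocyte median was -0.21 without tumor 1 of that group. Krt10, a keratin of skin, had 1179.5 normalized counts in anti-PD-1-treated tumor 1 and at most 45.0 in the other 9 tumors. The part of gland or skin tissue in the immune gene differences was not tested.

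In 66cl4 tumors, the same contrast gave 0 genes at an adjusted p of 0.05 (0.00%), with 642 lower (4.48%) and 546 higher (3.81%) at an unadjusted p under 0.05. The medians of 5 immune lists that were lower in 4T1 were close to or above 0 there, at 0.042 for the T-cell receptor complex, 0.016 for B-cells, 0.11 for dendritic cells, 0.22 for MHC class II and 0.14 for macrophages, and those of adipocytes and lactating epithelium were 0.18 and -0.10. The hypoxia and glycolysis median was -0.28, with 20 of 20 genes lower. A fit over all 8 groups assumes the same spread in both models, which was not tested. In this fit, 0 genes passed an adjusted p of 0.05 for the difference of the contrast between the models (0.00%), and 916 (6.40%) were lower and 736 (5.14%) higher in 4T1 than in 66cl4 at an unadjusted p under 0.05. The limma test of this difference had its smallest adjusted p, 0.111, for Cd2, at -1.05. At the unadjusted level, 14 of 16 T-cell receptor complex genes, 10 of 10 B-cell genes and 9 of 12 MHC class II genes differed between the models (11.5% of all genes in either direction).

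Of the single genes with the smallest p for this difference, Dnase1l3 was at -1.54 in 4T1 and 0.042 in 66cl4 (difference -1.58, SE 0.321) and Cd3g at -1.08 in 4T1 and 0.057 in 66cl4 (difference -1.14, SE 0.255). Lck was at -1.08 in 4T1 and 0.075 in 66cl4 (difference -1.15, SE 0.261) and Septin1, a cytoskeletal gene of lymphocytes, at -0.81 in 4T1 and 0.24 in 66cl4 (difference -1.05, SE 0.230). In the other direction, Hgsnat, a lysosomal acetyltransferase, was at 0.20 in 4T1 and -0.50 in 66cl4 (difference 0.69, SE 0.144), and Msln, which encodes the surface protein mesothelin, at 0.78 in 4T1 and -0.60 in 66cl4 (difference 1.38, SE 0.314). Glis2 and Gprc5a were at 0.33 in 4T1 and -0.21 in 66cl4 (difference 0.54, SE 0.132) and 0.41 in 4T1 and -0.25 in 66cl4 (difference 0.66, SE 0.165). The adjusted p for these genes was 0.131.

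The immune gene lists that were lower in the combination had positive medians for anti-PD-1 alone against untreated 4T1 tumors. Median differences from the 4 untreated tumors were 0.59 for anti-PD-1 alone, -0.020 for chitin alone and -0.17 for the combination for the T-cell receptor complex. They were 0.96 for anti-PD-1 alone, 0.066 for chitin alone and -0.092 for the combination for B-cells, and 0.49 for anti-PD-1 alone, 0.012 for chitin alone and -0.27 for the combination for MHC class II. For macrophages they were 0.39 for anti-PD-1 alone, -0.40 for chitin alone and -0.31 for the combination, and for hypoxia and glycolysis -0.54 for anti-PD-1 alone, -0.23 for chitin alone and -0.085 for the combination. The values are not independent of each other, since all 3 share the untreated tumors and the anti-PD-1 group is the one compared above. Against untreated tumors, 0 genes passed an adjusted p of 0.05 for anti-PD-1 (0.00%), with 626 lower (4.37%) and 647 higher (4.52%) at an unadjusted p under 0.05, and 0 for the combination, with 164 (1.15%) and 203 (1.42%). Cd3g had a mean of 107 ± 68.0 normalized counts in untreated (SD, n = 4) and 96.2 ± 52.3 in chitin-treated tumors (n = 5), against 261 ± 86.7 normalized counts with anti-PD-1 alone and 73.6 ± 40.3 with the combination (SD, n = 5 each). For Cd79a, these means were 13.1 ± 11.2 and 21.7 ± 26.3, against 126 ± 92.3 normalized counts with anti-PD-1 alone and 9.90 ± 3.34 with the combination (SD, n = 5 each).

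**Figure D5:**
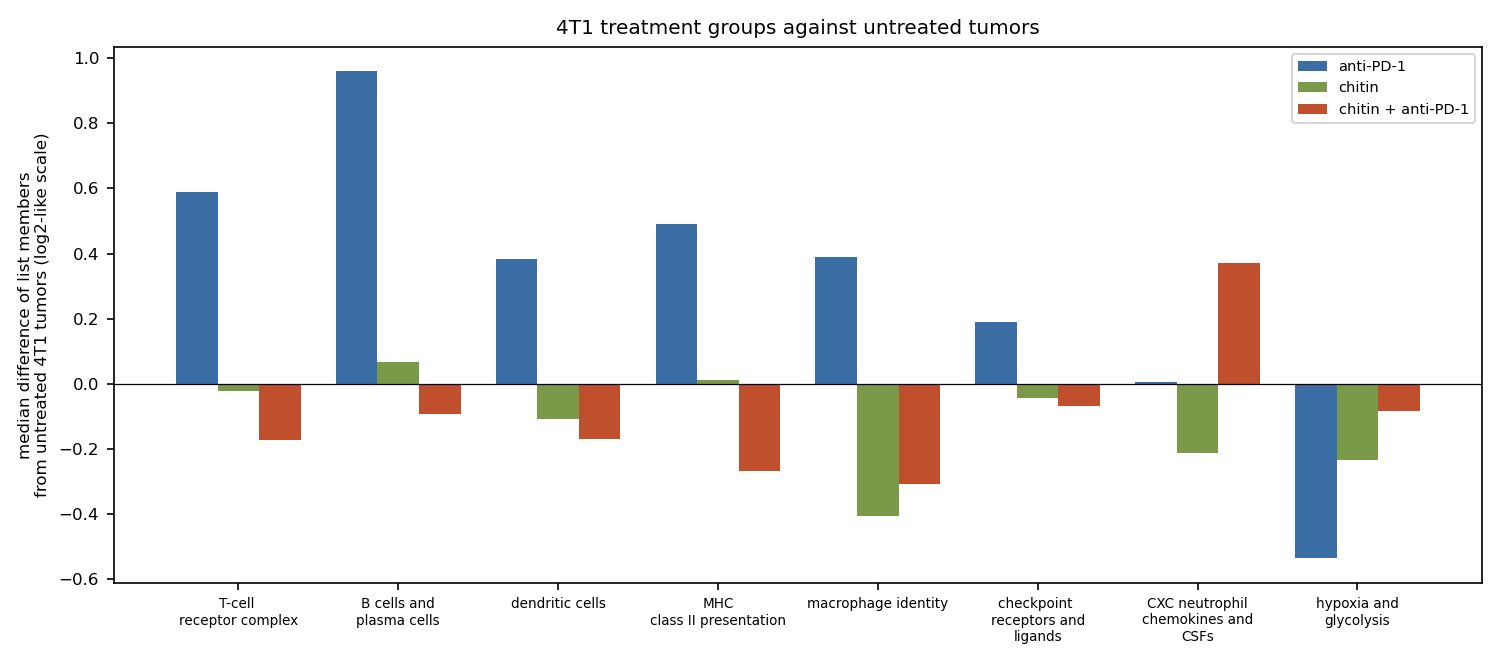
Median difference of the members of 8 gene lists from untreated 4T1 tumors (log2-like scale) for the 3 treated groups, which share the same 4 untreated tumors. For the T-cell, B-cell, dendritic cell, MHC class II, macrophage and checkpoint lists, anti-PD-1 alone lies above 0 and chitin + anti-PD-1 below it.

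Whether chitin differed in its effect with and without anti-PD-1 was asked with the difference of both chitin contrasts within 4T1. For this, 0 genes passed an adjusted p of 0.05 (0.00%), with 309 lower (2.16%) and 339 higher (2.37%) at an unadjusted p under 0.05. Of the T-cell receptor complex genes, 11 of 16 were at that level, of the B-cell genes 8 of 10 and of the MHC class II genes 6 of 12 (4.53% of all genes in either direction), with medians of -0.77, -1.02 and -0.64. Macrophage genes held 0 of 20. Outside these 4 lists, Cxcr2 was among the higher genes with the smallest p and differed by 0.70 with anti-PD-1 and -0.20 without (difference 0.90, SE 0.265). The chaperone gene Creld2, of the endoplasmic reticulum, differed by -0.56 with anti-PD-1 and 0.13 without (difference -0.68, SE 0.202), Fkbp2 of the same compartment by -0.39 with anti-PD-1 and 0.12 without (difference -0.51, SE 0.142), Rnf181 by -0.27 with anti-PD-1 and 0.071 without (difference -0.34, SE 0.0988) and A930015D03Rik by -0.25 with anti-PD-1 and 0.28 without (difference -0.52, SE 0.145). Plekha3 differed by 0.20 with anti-PD-1 and -0.26 without (difference 0.46, SE 0.101), Mtfr1 by 0.28 with anti-PD-1 and -0.22 without (difference 0.49, SE 0.130) and the small heat shock protein gene Hspb8 by 0.14 with anti-PD-1 and -0.37 without (difference 0.51, SE 0.152).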

How the data were processed

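RNA-sequencing of whole 4T1 primary tumors was analysed from the authors' table of 39 tumors. Stranded libraries had been aligned by the authors with HISAT2 (mm10), assigned to genes with summarizeOverlaps, filtered on a minimum count and passed through DESeq2's variance stabilizing transformation. Tool versions are not given in the sources used here. The deposited values are on a log2-like scale, and their shared minimum of 6.05 stands for 0 reads, which allowed the reads to be recovered (whole for 100% of values, tolerance 0.001 reads). Depth was 5594719 to 9908975 reads in the 10 tumors, and reads are not independent molecules.

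Group differences, their standard errors and their intervals came from linear models of limma 3.58.1 (R 4.3.3), moderated with a mean-variance trend, over the 19 tumors of the 4 4T1 groups, adjusted after Benjamini-Hochberg over 14318 genes (threshold 0.05), and contrasts that include 66cl4 over all 8 groups. Adjusted p-values in the text are from limma. The procedure was also run on simulated data, in which the counts of each gene were drawn independently. Shifts of a whole tumor were not simulated. Read totals were compared by an exact permutation test.

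Named genes are those the study names for 4T1 tumors, the 12 per direction with the smallest p among genes with a symbol and a mean above the lowest 25%, up to 4 per list, and 4 per direction for each difference contrast. Of 657 entries on 39 lists, 603 had values. The groups, genes and lists were chosen with earlier results of these data known, so that lists are described by counts and medians without a test. Positions are from RefSeq (GRCm38.p6), which held 14309 identifiers. Alternatives were a filter on low values, no trend, median centring, quantile normalization, tumor weights, the tumor number as a block, only the 2 compared groups, both models in 1 fit, limma-voom, equal depth of 5105898 reads and leaving out each tumor. Python 3.11.15 with numpy 2.4.6, pandas 2.3.3, scipy 1.17.1 and matplotlib 3.10.9 was used. The labelled untreated 4T1 tumor 3 was not analysed here.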

Additional observations from a re-analysis of the deposited data

Results flagged for a closer look

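In each group of 5, the highest or lowest tumor was compared with the other 4 by Dixon's criterion, which chance alone passes in about 1 of 20 groups, and all values here are on the log2-like scale. Tumor 2 of the anti-PD-1 group accounted for most of the values that passed. It was the lowest of its group at 10.96 for Csf1r, 8.30 for Rps6kb2, 8.82 for Cd52, 6.75 for Tnfrsf18, 7.21 for Cd22, 11.24 for C1qb, 11.49 for C1qc, 6.95 for Ccr7, 7.31 for Itgae, 7.06 for Ccl22, 7.60 for Septin1, 9.0005 for Rnf181 and 6.26 for Pla2g2d. It was the highest at 7.92 for Cxcl2, 9.84 for Ankrd50, 13.16 for Pgk1, 13.12 for Ndrg1, 7.62 for Mcpt8 and 9.21 for Nr1d2. Of the list means, it was the lowest at 6.73 for B cells and plasma cells, 9.49 for macrophage identity, 8.08 for dendritic cells and 9.72 for complement, and the highest at 11.72 for hypoxia and glycolysis. Chitin + anti-PD-1-treated tumor 5 was the highest of its group at 8.29 for Dnase1l3, 8.27 for Lck and 12.39 for H2-Ab1. Its list mean was the highest at 10.50 for MHC class II presentation. Chitin + anti-PD-1-treated tumor 1 was the highest at 10.29 for Cxcl2 and 7.98 for Fkbp2. The same tumor was the lowest at 9.57 for Csf1r. Chitin + anti-PD-1-treated tumor 2 was the lowest at 6.42 for Cd79a. Tumor 3 of the anti-PD-1 group was the highest at 7.85 for Klrd1 and 8.55 for Cd8b1. Its list mean was the lowest at 10.14 for respiratory chain. Tumor 4 of the anti-PD-1 group was the lowest at 8.28 for S100a8. Tumor 1 of the anti-PD-1 group was the highest at 10.35 for Krt10. Its list mean was the highest at 9.04 for keratinocytes. With the weights that limma estimated for each tumor, where equal tumors would have 1, anti-PD-1-treated tumor 2 had 0.308.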

How the results depend on the processing

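The count of genes at an adjusted p of 0.05, 0 as reported, ran from 0 to 202 when each tumor was left out in turn. It was 202 without anti-PD-1-treated tumor 2, 1 (Dnase1l3) without chitin + anti-PD-1-treated tumor 5 and 0 without each of the other 8. The counts at an unadjusted p under 0.05 ran from 553 to 1522 for lower and from 295 to 1302 for higher genes. With tumor weights, 2127 genes passed the adjusted threshold, and 2184 lower and 2216 higher genes the unadjusted one. With both models in 1 fit these counts were 294, 1314 and 1186. Quantile normalization gave 2 genes (Cd2 and Stk32c) at the adjusted threshold. The filter on low values kept 10739 of 14318 genes. At the unadjusted threshold it gave 525 lower and 402 higher genes, against 800 and 507 without it. Of these genes, 56.6% were lower with the filter and 61.2% without it. The filter kept 61 of the 107 named genes, and Pdcd1 and Lag3 were among those left out. For the difference between 4T1 and 66cl4, quantile normalization gave 5 genes (Cd2, Cd6, Cd7, Dnase1l3 and Acss1) and tumor weights 1941, with 1989 lower and 2114 higher at the unadjusted threshold. For the difference with and without anti-PD-1, the filter gave 151 lower and 278 higher genes, against 309 and 339 without it. Tumor weights gave 905 lower and 806 higher. The cause of these changes was not tested.

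With the tumor number as a replicate block, 1 gene passed the adjusted threshold in the main comparison (Dnase1l3) and 1 for the difference between models (Cd2), with 831 lower and 487 higher genes at the unadjusted threshold in the main comparison. Deviations from the group mean of same-numbered tumors correlated at -0.23, -0.21, -0.28, 0.31 and -0.017 for tumors 1 to 5. Each combination tumor correlated better with an anti-PD-1-treated tumor of another number than with that of its own. Of the anti-PD-1-treated tumors, only tumor 4 correlated best with its own number. The labels name no pairing, and correlations between so few tumors cannot exclude a pairing or a shared batch.

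Of 2094 values of the 107 named genes under the alternatives, 1871 kept direction and side of the adjusted threshold, 209 kept the direction and passed it, and 14 values of 5 genes turned their sign. Left out in turn, single tumors moved Cd274 from -0.34 to 0.11, Itgam from -0.26 to 0.12, Krt10 from -0.87 to 0.0058, Chil1 from -0.36 to 0.084 and Gzmb from -0.18 to 0.36. Cd274 was at 0.047 with tumor weights, 0.11 without anti-PD-1-treated tumor 2 and 0.0081 without chitin + anti-PD-1-treated tumor 4. Itgam was at 0.025 with tumor weights, 0.00045 without chitin + anti-PD-1-treated tumor 1 and 0.12 without tumor 4 of that group. Krt10 was at 0.0058 and Chil1 at 0.017 without anti-PD-1-treated tumor 1, and Chil1 at 0.084 without chitin + anti-PD-1-treated tumor 3. Gzmb was at -0.068, -0.015 and -0.018 without anti-PD-1-treated tumors 1, 4 and 5, and at -0.18 and -0.085 without chitin + anti-PD-1-treated tumors 1 and 5. The cause was not tested. With reads thinned to equal depth, all 107 named genes kept direction and side of the threshold.

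Without the tumor named in parentheses, the difference was 0.77 for Chil3 (combination tumor 3), 0.47 for Il1a (combination tumor 1), 1.44 for Ndrg1 (anti-PD-1 tumor 2) and -0.32 for Lep (anti-PD-1 tumor 1). The following list medians moved by over 1.5 times or turned their sign and ran, by the tumor left out, for interferon gamma response from -0.44 (combination tumor 5) to -0.032 (anti-PD-1 tumor 2), type I interferon response from -0.33 (combination tumor 5) to -0.094 (combination tumor 2), tumor macrophage state from -0.22 (anti-PD-1 tumor 2) to -0.0019 (combination tumor 3), inflammatory cytokines from 0.020 (anti-PD-1 tumor 1) to 0.13 (combination tumor 3), STAT3 pathway from -0.14 (combination tumor 1) to -0.037 (combination tumor 4), toll-like receptors and lectins from -0.18 (anti-PD-1 tumor 2) to -0.087 (combination tumor 1), type 2 immunity from -0.25 (anti-PD-1 tumor 2) to -0.061 (anti-PD-1 tumor 4), chitinase-like genes from -0.046 (combination tumor 4) to 0.028 (combination tumor 2), cell cycle from -0.15 (combination tumor 5) to 0.15 (combination tumor 4), respiratory chain from -0.073 (combination tumor 4) to -0.031 (anti-PD-1 tumor 2), p53 targets from -0.20 (anti-PD-1 tumor 2) to -0.086 (combination tumor 5), collagens and matrix from -0.15 (anti-PD-1 tumor 2) to 0.48 (combination tumor 1), matrix metalloproteinases from 0.043 (anti-PD-1 tumor 5) to 0.36 (combination tumor 1), endothelium from -0.070 (anti-PD-1 tumor 2) to 0.24 (combination tumor 1), epithelium and EMT from 0.029 (anti-PD-1 tumor 5) to 0.26 (anti-PD-1 tumor 4), skeletal muscle from -0.31 (combination tumor 5) to 0.51 (anti-PD-1 tumor 3), red blood cells from 0.012 (combination tumor 5) to 0.63 (combination tumor 1), immediate-early genes from 0.059 (combination tumor 2) to 0.23 (anti-PD-1 tumor 4), ribosomal proteins from 0.037 (combination tumor 1) to 0.21 (combination tumor 5) and cholesterol synthesis from -0.0075 (anti-PD-1 tumor 3) to 0.18 (anti-PD-1 tumor 2). The 5 medians of the T-cell receptor complex, B-cells, dendritic cells, MHC class II and cytotoxic genes each stayed below 0 and within 1.5 times their value when any 1 tumor was left out.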
